A study of Mus musculus with 6 samples.

Results

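DP42 is a murine cell line that the labels describe as myeloma, a cancer of plasma cells. The baseline transcriptome described here is that of DP42 cells cultured alone for 24 h, chosen by the co-culture label "none": 2 of the 6 arrays of the series. The remaining arrays hold DP42 cells kept for 24 h with B cells or with neutrophils of the mouse, 2 arrays for each partner, and were used only to choose 1 probe set per gene. Total RNA was taken with Trizol and labelled with biotin for Affymetrix arrays. No genotype, treatment, animal or passage is given for the line, and the labels do not tell whether the 2 arrays stand for separate cultures, so their spread may be technical. The labels speak of flow sorting for co-cultured cells and do not say whether cells cultured alone were sorted. Each array gave a log2 level for 22180 genes that the platform annotation names with exactly 1 symbol.

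A plasma cell is the antibody-secreting end stage of the B lineage. In B cell development, precursors assemble a receptor from an immunoglobulin heavy chain and a surrogate light chain and grow in response to interleukin 7. Mature B cells are held in their identity by Pax5 and its partners, and plasma cells shut that programme down through Prdm1 while Irf4 and Xbp1 drive secretion. Myeloma cells are known for dependence on Irf4, Myc, the proteasome and signals from marrow cells.

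Levels are log2 RMA values, printed as replicate 1 and then replicate 2. The percentile beside them is the share of the 22180 genes at or below that level in the same array, averaged over both arrays. Probe sets differ in how well they bind, so a percentile is a place in the array's range of brightness and not a transcript number, and in bulk RNA fewer cells with a transcript and less of it per cell cannot be told apart. Genes of olfactory and vomeronasal receptors, which belong to sensory neurons, served as a measured background. Their median was 5.51 and 5.43 log2 over 1390 genes, against 7.30 and 7.33 for all genes. A gene was called above the background bound when it exceeded the 95th percentile of these receptors in both arrays (7.74 and 7.75 log2, at percentiles 58.2 and 57.9 of all genes). Of the receptors themselves, 62 passed in both arrays (4.46%). A stricter bound, their 99th percentile (8.85 and 8.88 log2), a looser one, their 90th (7.22 and 7.18), and a bound from other tissue-restricted genes (8.31 and 8.23) are named below where they move a count by over 1.5 times.

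Above that bound stood 9121 of 22180 genes (41.1%), or 9059 of 20790 without the receptors (43.6%), and 8482 of 17595 protein-coding genes without them (48.2%). A further 363 genes passed in exactly 1 array. The absolute difference between the arrays had a median of 0.082 log2 and a 95th percentile of 0.311, and that percentile was 0.197 for genes above the bound and 0.361 for the others. Percentile ranks moved between the arrays by 5.83 points at the 95th percentile. Over 1 log2 apart lay 4 genes. Of these, Rabggtb, a subunit of the enzyme that attaches prenyl groups to Rab proteins, was above the bound at 9.16 and 10.25 log2, as was the small nucleolar RNA gene Snord72 at 8.34 and 9.41. Mir133a-2 at 6.30 and 4.67 and the immunoglobulin segment Igkv9-120 at 4.07 and 5.14 were below it, as was the next in order, the pheromone peptide gene Esp4, at 6.01 and 5.02.

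**Figure D1:**
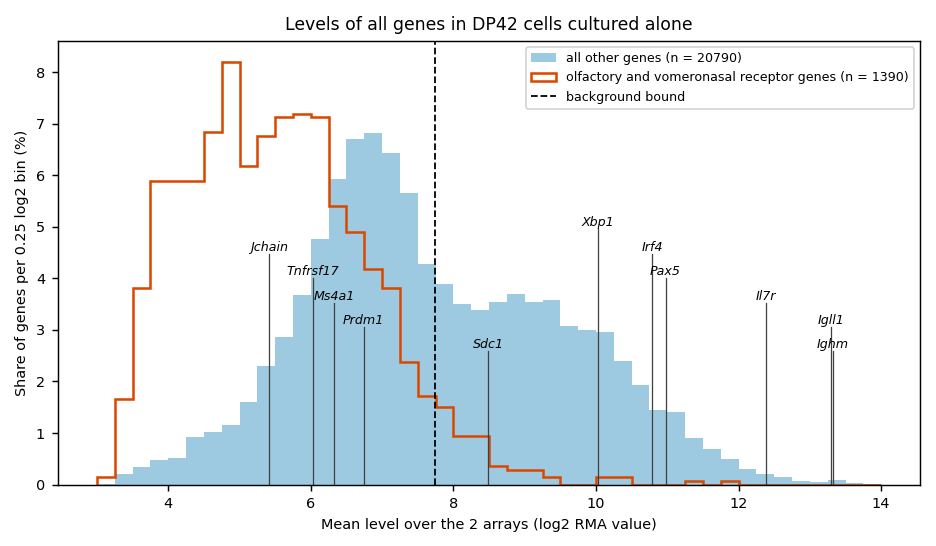
Distribution of the mean log2 level of each gene over the 2 arrays of DP42 cells cultured alone, in bins of 0.25 log2, for the 1390 sensory receptor genes (line) and the 20790 other genes (filled), as a share (%) of each set. The dashed line is the background bound. Ighm, Igll1 and Il7r lie far to its right, and Prdm1, Ms4a1, Tnfrsf17 and Jchain to its left.

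The 25 brightest genes, leaving out ribosomal proteins, small RNA genes, histones, immunoglobulin and predicted genes, held many of energy supply and translation. Of these, 9 are encoded in mitochondria and belong to the respiratory chain: ND4, CYTB, COX1, ND1, ND3, ND5, COX3, ND4L and ND2, with ND4 at 13.61 and 13.54 log2 and ND2 at 13.19 and 13.12. Translation was represented by the initiation helicase Eif4a1 (13.59 and 13.63 log2) and the elongation factors Eef1a1 (13.38 and 13.35) and Eef2 (13.26 and 13.25). The list went on with the tubulin Tubb5, the membrane protein Serinc3, B2m (the light chain of MHC class I), Ptma, the ATP synthase subunits Atp5b and Atp5md, the ADP/ATP carrier Slc25a5, the oligosaccharyltransferase subunit Ost4, Gapdh, the RNA-binding protein Pcbp2, the chaperone Canx and the galectin Lgals1. A surface antigen of early B cells was among them, Cd24a, at 12.94 and 12.90 log2 (percentile 99.8). With every kind of gene counted, the brightest was Rn7sk, a small nuclear RNA that restrains transcription elongation, at a mean of 13.87 log2, and Ighm and Igll1 ranked 18 and 20.

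The 4 genes set as markers of these cells were all above the bound. Pax5, the transcription factor that commits cells to the B lineage, stood at 11.00 and 10.95 log2 (percentile 95.8). Irf4, needed for plasma cell formation, was at 10.84 and 10.74 (94.7), and Xbp1, the driver of the secretory programme, at 9.99 and 10.07 (88.0). Sdc1, the syndecan by which plasma cells are commonly recognised, was lower in rank, at 8.43 and 8.55 (68.4), and its other probe set was not above the bound, at 6.70 and 6.68. Sdc1 was not called with its probe sets averaged or at the stricter bound, which left 3 of the 4 markers. Pax5, which plasma cells normally switch off, was thus in the top 10% of genes in these cells.

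Of 10 plasma cell regulators, 8 were above the bound (80.0%, against 48.2% of all coding genes), with a median percentile of 89.5. The highest were Pou2af1, a coactivator of octamer-binding factors, at 12.22 and 12.27 log2 (99.4), the elongation factor Ell2 at 10.69 and 11.01 (95) and the stress sensor Atf6 at 10.89 and 10.77 (95). Bhlha15, a target of Xbp1 that organises secretory cells, was close to the bound at 7.96 and 8.15 (62.6), and Creb3l2 was at 8.28 and 8.11 (64.5). The regulators not above it were Zbtb20 at 6.98 and 7.07 (42.9) and Prdm1, the repressor that ends the B cell programme, at 6.70 and 6.78 (35.4). The Prdm1 promoter is shown because it is rich in CG dinucleotides although the gene was below the bound. The run covers 250 bases before and 50 after the annotated start (RefSeq, GRCm38.p6, chr10:44458699-44458998, minus strand, 5′ to 3′), with its 20 CG in capitals.
Prdm1: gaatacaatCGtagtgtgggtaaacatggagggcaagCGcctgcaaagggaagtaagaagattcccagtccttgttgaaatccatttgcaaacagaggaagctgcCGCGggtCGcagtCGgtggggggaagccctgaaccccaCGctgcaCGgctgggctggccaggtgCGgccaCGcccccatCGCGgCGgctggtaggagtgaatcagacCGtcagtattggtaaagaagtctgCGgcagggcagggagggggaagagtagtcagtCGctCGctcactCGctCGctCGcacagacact

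Plasma cell surface and secretory genes were above the bound in 13 of 18 cases (72.2%, median percentile 65.2), against 48.2% of all coding genes. At the stricter bound 7 passed. Parts of the secretory machinery were bright: Mzb1, a chaperone of antibody assembly, was at 12.10 and 12.16 log2 (99.3), the cargo receptor Lman1 at 10.90 and 10.98 (95.6) and the degradation factor Edem1 at 10.56 and 10.44 (92.7; its other probe set at 6.71 and 6.64). Slamf7, a surface receptor used as an antibody target in myeloma, was at 11.96 and 11.96 (99.1). The translocon subunit Ssr4 (10.16 and 10.26) and the signal peptidase subunit Sec11c (9.92 and 9.92) were also well above the bound. The lowest members were surface and antibody genes typical of mature plasma cells. Cd27 stood at 6.08 and 6.24 log2 (21.3), Tnfrsf17, which encodes BCMA, at 5.99 and 6.06 (18.8), Gprc5d at 5.58 and 5.82 (13.7), and Jchain, the joining chain of secreted IgM and IgA, at 5.46 and 5.37 (10.2). The receptor for BAFF and APRIL Tnfrsf13b was near the bound at 7.94 and 8.07 (61.9).

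B-lineage transcription factors were above the bound in 20 of 21 cases (95.2%, against 48.2% of all coding genes). Their median percentile was 92.3, and 11 were in the top 10%. Bach2, a repressor that delays plasma cell formation, stood at 11.61 and 11.54 log2 (98.3). The Ikaros family members Ikzf1, at 11.53 and 11.55 (98.2), and Ikzf3, at 11.54 and 11.48 (98.1), were next in rank, followed by Ebf1, the early specification factor, at 11.46 and 11.33 (97.7). Bcl11a was at 10.76 and 10.80 (94.7), with its other probe set below the bound at 6.57 and 6.63. At the low end Hhex (8.43 and 8.52), Id3 (8.21 and 8.24) and Lmo2 (8.02 and 8.24) were above the bound, and Klf2, a factor of quiescence and trafficking, passed in 1 array only, at 7.57 and 7.77 (56.8).

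The B cell receptor and its signalling partners were above the bound in 23 of 26 cases (88.5%, median percentile 93.3), 14 of them in the top 10%. The share of all coding genes was 48.2%. Both signalling chains of the receptor were bright: Cd79b at 12.48 and 12.52 log2 (99.6) and Cd79a at 12.23 and 12.06 (99.3). The coreceptor partner Cd81 stood at 11.91 and 11.91 (99), the adaptor Pik3ap1 at 11.88 and 11.82 (98.9), Ly86 (a partner of the Toll-like receptor Cd180) at 11.67 and 11.72 (98.6), and the inhibitory Fc receptor Fcgr2b at 11.57 and 11.60 (98.3). The members not above the bound are surface proteins of mature B cells. The complement receptor Cr2 was at 6.95 and 6.62 log2 (36.5), Ms4a1, which encodes CD20, at 6.33 and 6.33 (24.9), and the low-affinity IgE receptor Fcer2a at 5.80 and 5.82 (15.2).

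Genes of precursor B cells were spread widely, with 8 of 16 above the bound (median percentile 52.1), a share close to that of all coding genes. Those above it were very bright at the top: Igll1, the surrogate light chain, at 13.28 and 13.31 log2 (99.9), Il7r, the interleukin 7 receptor, at 12.43 and 12.33 (99.5), and Myb, a factor of immature blood cells, at 12.10 and 12.04 (99.2). Vpreb3 was at 10.93 and 10.68 (94.8), the surface antigen Cd93 at 10.76 and 10.81 (94.7) and Sox4 at 9.80 and 9.91 (86.0). By contrast the recombination gene Rag2 stood at 6.22 and 6.43 (24.8), the surrogate light chain part Vpreb1 at 6.30 and 6.31 (24.3), the growth factor receptor Kit at 6.25 and 6.25 (23.1) and Arpp21 at 6.14 and 6.08 (20.3). All 4 lay below the array's gene median in both arrays. Vpreb2, a second VpreB gene of the list, was above the bound at 8.67 and 8.72 log2 (71.0), though not above the stricter one. It was singled out with its level already known. The Igll1 promoter is shown as that of a very bright gene with few CG dinucleotides, 2 in all, set in capitals (RefSeq, GRCm38.p6, chr16:16863936-16864235, minus strand, 5′ to 3′, same window).
Igll1: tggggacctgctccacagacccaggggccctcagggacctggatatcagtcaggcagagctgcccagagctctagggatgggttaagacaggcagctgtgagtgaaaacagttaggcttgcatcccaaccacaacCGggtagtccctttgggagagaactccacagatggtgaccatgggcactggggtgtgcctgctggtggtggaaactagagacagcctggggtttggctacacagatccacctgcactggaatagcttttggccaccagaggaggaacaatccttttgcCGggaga

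Of 13 immunoglobulin constant genes listed, only 2 were analysed, Ighm and Ighg3, so nothing is said here of the others. Ighm, the heavy chain of IgM, was at 13.35 and 13.30 log2 (99.9) for its brightest probe set. The 7 probe sets named Ighm ran from 5.34 and 4.14 to that level, and 3 of them were above the bound. Ighg3 passed in 1 array only, at 7.90 and 7.71 (59.0), so 1 of these 2 genes was called, and 2 at the looser bound. Germinal centre genes were above the bound in 5 of 10 cases (median percentile 60.5), about the 48.2% of all coding genes, and in 3 with the stricter bound or that from other genes. They were the guidance receptor Plxnb2 at 11.24 and 11.23 log2 (97.1), S1pr2, which confines cells to the germinal centre, at 9.78 and 9.69 (84.7), Mybl1 at 9.60 and 9.70 (83.7), and, near the bound, Basp1 and Rgs13, both at 8.0 and 8.06 (62.3). Bcl6, the defining repressor of that stage, was at 6.68 and 6.70 (34.0) and the death receptor Fas at 5.32 and 5.15 (8.6). Of 10 genes of B1 and marginal zone cells 7 passed (70.0%), none in the top 10%, with 3 at the stricter bound and 4 at that from other genes. Dtx1, a regulator of Notch, was at 9.70 and 9.67 log2 (84.1) in 1 probe set and at 7.41 and 7.51, not above the bound, in the other, and Cd5 was not above the bound at 7.59 and 7.61 (55.7).

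MHC class II genes present antigen on B cells and are lowered in plasma cells. They were above the bound in 6 of 9 cases (66.7%, median percentile 74.7), against 48.2% of all coding genes. H2-Ab1 stood at 10.30 and 10.32 log2 (91.0), H2-Eb1 at 10.19 and 10.23 and H2-Aa at 9.67 and 9.57 (83.3). Ciita, the master activator of the locus, was at 8.95 and 8.97 (74.7). The peptide-loading genes H2-DMa (7.49 and 7.39 log2), H2-DMb2 (6.93 and 6.89) and H2-DMb1 (6.76 and 6.66) were not above the bound, although the presenting chains were.

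Read against the label, these lists do not agree. The cells carried Irf4, Xbp1, Mzb1 and Slamf7 above the bound, and Sdc1 in 1 of its 2 probe sets. The plasma cell genes Prdm1, Jchain and Tnfrsf17 were not above it, and Pax5, Ebf1, Bach2, Ciita, Igll1 and Il7r were. The plasma cell lists did not pass throughout, with 8 of 10 regulators and 13 of 18 surface and secretory genes above the bound. Nor did the listed genes of precursor, germinal centre or mature B cells pass throughout. Of precursor genes, Rag2, Vpreb1 and Kit were not above the bound, although Vpreb2 was. Bcl6 of the germinal centre, and Ms4a1, Cr2 and Fcer2a of mature B cells, were not above the bound either. Other members of the same lists were: 8 of 16 precursor, 5 of 10 germinal centre and 23 of 26 B cell receptor genes. Among these was Cd22, a further surface protein of B cells (percentile 95.8), named after its value was seen. The cells are therefore called here by their line name. In all, 90 of 120 genes in the lineage lists were above the bound (75.0%, median percentile 79.2), against 48.2% of all coding genes, and 44 were in the top 10%. Some genes sit in more than 1 list and were counted once here.

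**Figure D2:**
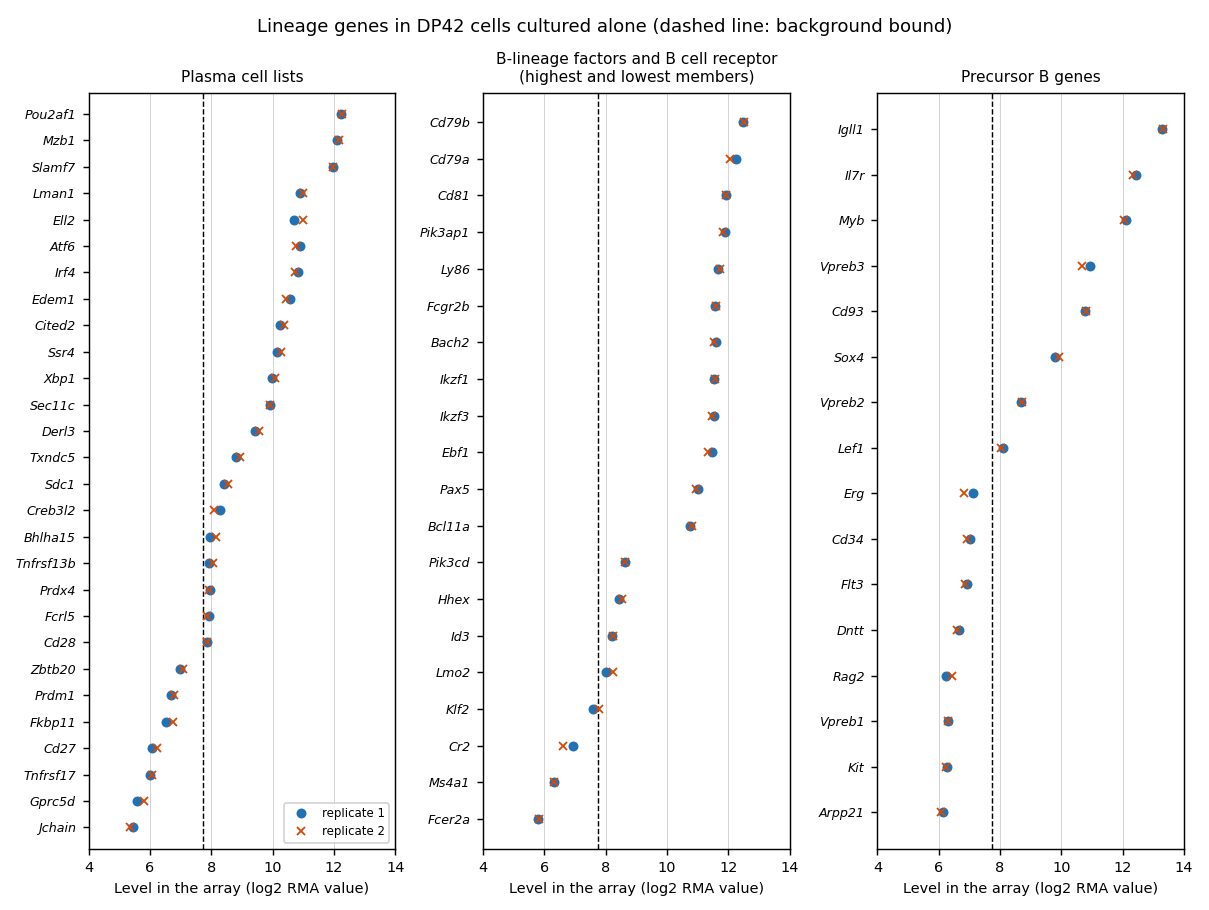
Level (log2 RMA value) of lineage genes in replicate 1 (circles) and replicate 2 (crosses) of DP42 cells cultured alone, for the plasma cell lists, the highest and lowest B-lineage and B cell receptor genes, and precursor B genes, with the background bound as a dashed line. Pou2af1, Mzb1 and Slamf7 head the first panel and Jchain ends it. Among precursor genes Igll1, Il7r and Myb lie from 12.04 log2 upward and the 8 from Erg to Arpp21 left of the bound, with the other genes of the list between them.

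Markers of other cells were read to see what else the cultures could hold. Over 6 lists 14 of 87 genes were above the bound (16.1%, median percentile 37.9), a smaller share than the 43.6% of all genes without the receptors. Of 19 neutrophil markers only Itgam, the alpha chain of Mac-1, was above it, at 10.88 and 10.81 log2 (95.1). At the looser bound 3 passed, and 2 when replicate 1 was left out. The granule and surface genes S100a8 (5.51 and 5.65 log2), Ngp (5.57 and 5.76), Ly6g (5.60 and 5.74) and Retnlg (5.66 and 5.76) were all at or under percentile 13.8, and the mean over the list was 6.74 and 6.82 log2. Of 14 monocyte and macrophage markers 4 passed: the lysosomal protein Cd68 at 9.34 and 9.13 (78.4), Cx3cr1 at 8.65 and 8.81 (71.5), Mrc1 at 8.52 and 8.48 (68.4) and C1qa at 7.82 and 7.98 (60.4), while Cd14 (6.25 and 5.91) and Adgre1 (6.07 and 5.94) did not.

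Among T and NK cell markers 2 of 14 passed, Cd3g at 8.27 and 8.42 log2 (66.4) and Cd2 at 8.02 and 8.08 (62.5), and the cytotoxic genes Gzmb (5.79 and 5.82) and Gzma (5.04 and 5.35) were far below the bound. None of the 8 erythroid and megakaryocyte markers passed, with Gp9 highest at 7.44 and 7.47 (53.0). Of 13 stromal and endothelial markers 5 passed, led by Pecam1, an adhesion molecule that leukocytes carry too, at 9.65 and 9.53 log2 (83.0) and the smooth muscle actin Acta2 at 8.87 and 8.62 (71.8). Genes of unrelated tissues passed in 2 of 19 cases, the kidney gene Umod at 8.33 and 8.41 (66.8) and the liver gene Apoa1 at 7.93 and 7.96 (61.0), so a dim spot just past the bound is also seen for genes of other organs. Over all 6 lists, 3 of the 87 genes remained at the stricter bound, Itgam, Cd68 and Pecam1, 7 passed with the bound from other genes and 28 at the looser bound. At the stricter bound, 1 monocyte and macrophage, 1 stromal and endothelial, 0 T and NK and 0 unrelated tissue genes passed. With the bound from other genes, 2 stromal and endothelial, 1 unrelated tissue and 0 T and NK genes passed. At the looser bound, 4 T and NK, 3 erythroid and megakaryocyte and 6 unrelated tissue genes passed. Whether other cells contribute to any level given here was not tested.

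Of the growth-control genes analysed, chosen with values known, 77 of 94 were above the bound (81.9%, median percentile 78.4), against 48.2% of all coding genes. In the MYC network and the cyclins 17 of 20 passed, 9 in the top 10%. Cdk4, the G1 kinase that D cyclins activate, stood at 12.52 and 12.51 log2 (99.6), the S phase cyclin Ccna2 at 11.61 and 11.66 (98.4), and Cdk1 at 10.99 and 10.99 (95.8). Among D cyclins, Ccnd3 was at 11.03 and 11.05 (96.1) and Ccnd1 at 10.68 and 10.76 (94.3), while Ccnd2 was below the bound at 5.68 and 5.61 (12.9). Myc itself was at 10.93 and 10.79 log2 (95.1). Its relatives Mycn, at 6.68 and 6.47 (31.2), and Mycl, at 6.08 and 5.96 (18.7), were not above the bound.

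The Cdk4 promoter is shown because it holds the E-box CACGTG, the motif that MYC and its partner MAX bind, 4 times (RefSeq, GRCm38.p6, chr10:127063285-127063584, plus strand, 5′ to 3′, same window). CG dinucleotides are in capitals, 22 in all, and each CACGTG, which reads the same on both strands, contains 1 of them.
Cdk4: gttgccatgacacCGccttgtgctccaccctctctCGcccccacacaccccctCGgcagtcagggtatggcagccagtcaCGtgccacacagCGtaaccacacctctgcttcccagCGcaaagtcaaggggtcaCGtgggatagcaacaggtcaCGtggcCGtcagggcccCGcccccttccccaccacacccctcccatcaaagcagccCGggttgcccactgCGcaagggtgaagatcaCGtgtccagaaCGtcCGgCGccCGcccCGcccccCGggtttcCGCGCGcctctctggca

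Of the genes that human myeloma translocations activate, counted together with Itgb7, 6 of 9 were above the bound. Besides Ccnd3, Myc, Irf4 and Ccnd1 these were the histone methyltransferase Nsd2, at 10.66 and 10.68 log2 (94.0), and the transcription factor Mafa, at 8.38 and 8.41 (67.1). The receptor kinase Fgfr3 (6.84 and 6.54 log2), the factor Maf (6.18 and 6.44) and its reported target Itgb7 (6.97 and 7.0) were not. All 18 RAS pathway and kinase genes passed, with a median percentile of 82.8. Akt1 was at 11.37 and 11.36 log2 (97.6), Mtor at 11.25 and 11.21 (97.1) and Nras at 10.52 and 10.51 (92.8), and the lowest was Src at 7.76 and 7.92 (59.5), just past the bound in replicate 1.

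In the BCL2 family and the inhibitors of apoptosis 14 of 19 genes were above the bound (median percentile 68.5), but only 4 at the stricter bound: Bcl2l11, Bak1, Mcl1 and Birc3. The highest in rank was a pro-apoptotic gene, Bcl2l11 (BIM), at 11.18 and 11.18 log2 (96.9), followed by the pore former Bak1 at 10.56 and 10.48 (92.9). Mcl1, the survival protein on which myeloma cells commonly rely, was at 10.24 and 10.36 (91.0), with its other probe set below the bound at 6.54 and 6.59. Bcl2, the target of venetoclax, was at 8.18 and 8.16 log2 (64.2) and 6.41 and 6.52 in its other probe set, and was named after its value was seen, as was Bcl2l1 (BCL-XL), which was not above the bound at 7.68 and 7.54 (55.8). Birc3 was at 9.31 and 9.31 (79.4), and the lowest members were the pro-apoptotic genes Bbc3 (7.54 and 7.48), Bad (7.54 and 7.42) and Hrk (5.78 and 6.0), with the survival gene Bcl2a1a at 7.01 and 7.30.

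NF-kB genes passed in 11 of 14 cases (median percentile 75.5), with 1 in the top 10%, and in 7 at the stricter bound. The subunits Rela, at 10.30 and 10.23 log2 (90.7), and Rel, at 10.20 and 10.19 (89.9), were highest. Relb stood near the bound at 7.79 and 7.91 (59.6), and Map3k14 (NIK), the kinase of the non-canonical branch, was not above it at 7.46 and 7.50 (53.5). Of the pathway's brakes, the inhibitor Nfkbia was at 9.68 and 9.76 log2 (84.5), and the deubiquitinase Tnfaip3 at 7.41 and 7.42 (52.2), not above the bound.

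Tumour suppressors and cell-cycle brakes, with the p53 inhibitor Mdm4 counted among them, were above the bound in 15 of 18 cases (median percentile 78.0). The p53 inhibitor Mdm4 stood at 11.22 and 11.23 log2 (97.1), the retinoblastoma gene Rb1 at 11.13 and 11.10 (96.5) in 1 probe set and 7.0 and 6.91 in the other, and its relative Rbl1 at 11.06 and 11.00 (96.0). Cdkn1a, the p53 target p21, was at 10.80 and 10.93 (95.2). Of 2 genes often mutated in human myeloma, Dis3, an exosome nuclease, was at 10.85 and 10.74 log2 (94.8) and Tent5c, a poly(A) polymerase, at 6.34 and 6.58 (28.1). Cdkn2a, which encodes p16 and ARF, was not above the bound at 7.70 and 7.69 (57.3), nor was Cdkn1c at 6.91 and 7.18 (43.4).

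**Figure D3:**
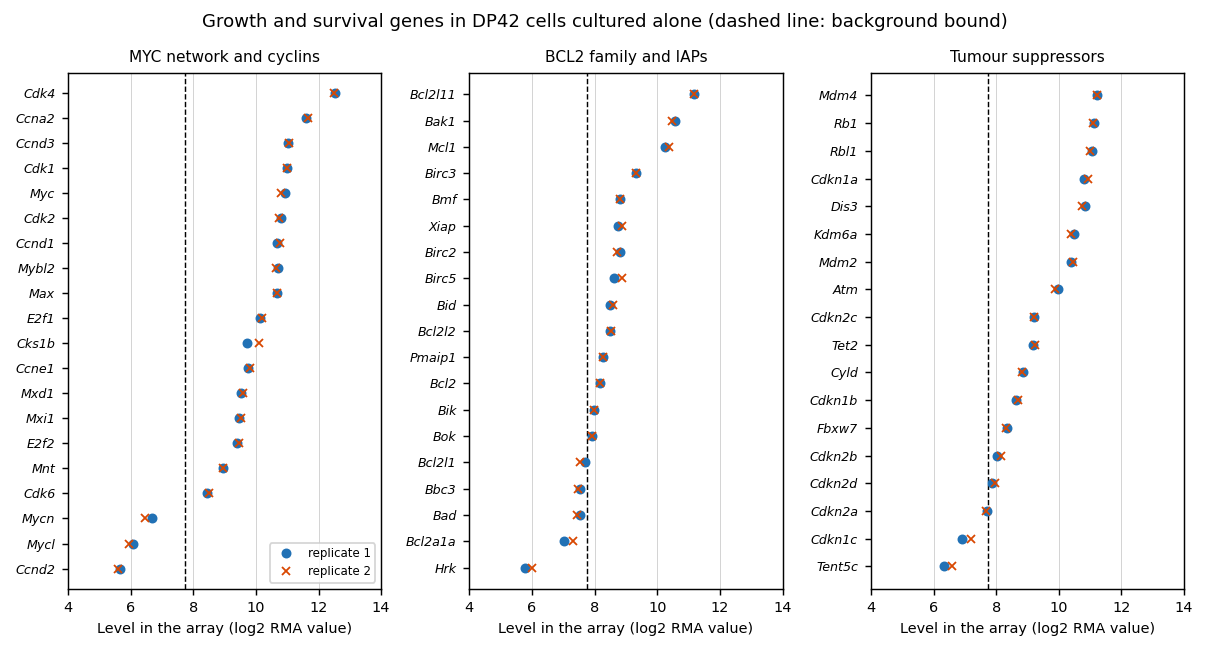
Level (log2 RMA value) of the MYC network and cyclins, the BCL2 family with inhibitors of apoptosis, and tumour suppressors (with the p53 inhibitor Mdm4) in replicate 1 (circles) and replicate 2 (crosses) of DP42 cells cultured alone, with the background bound as a dashed line. Cdk4 heads the first panel and Ccnd2 ends it, and Bcl2l11, Bak1 and Mcl1, from 10.24 log2 upward, stand apart from the other BCL2 family genes, none of which is over 9.31.

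Receptors and other genes of communication were above the bound in 72 of 153 cases (47.1%, median percentile 56.1), close to the 48.2% of all coding genes. Cytokine and growth factor receptors passed in 18 of 33 cases. After Il7r came Bmpr2, a receptor of bone morphogenetic proteins, at 11.07 and 11.06 log2 (96.3), the interferon receptor chains Ifnar2 at 10.54 and 10.55 (93.1) and Ifngr2 at 10.54 and 10.52 (92.9), and Tgfbr2 at 10.40 and 10.27 (91.2). Il2ra, the alpha chain of the interleukin 2 receptor, was at 10.14 and 10.14 (89.3), while the beta chain Il2rb was not above the bound at 6.39 and 6.57 (28.6). Both chains of the receptor for interleukin 6, the classic myeloma growth factor, passed: Il6st (gp130) at 9.51 and 9.34 log2 (80.9) and Il6ra at 9.18 and 9.21 (77.9), named after their values were seen. The lowest were Bmpr1a at 6.40 and 6.43 (27.0) and Il1r1 at 6.03 and 5.80 (16.8).

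The TNF receptor family passed in 8 of 18 cases (44.4%), near the background share, in 5 with the bound from other genes and in 1 at the stricter bound. Tnfrsf13c, the BAFF receptor, was the brightest at 9.95 and 10.06 log2 (87.7), and the others above the bound lay between percentiles 61.2 and 69.9, among them Tnfrsf1b at 8.59 and 8.63 and Ltbr at 8.40 and 8.43. Cd27, Tnfrsf17, Tnfrsf1a (5.59 and 5.79 log2) and Fas were the 4 lowest. Chemokine and lipid receptors passed in 8 of 23 cases (34.8%), and in 5 with either of the higher bounds. Cxcr4, which holds plasma and precursor cells in marrow, stood at 11.72 and 11.71 log2 (98.6) and Ccr7, a receptor for lymph node homing, at 11.16 and 11.23 (96.9). The ATP-gated channel P2rx7 was at 9.51 and 9.47 (81.8), and Ccr9, Ccr1, S1pr3 and Ccr3 were the 4 lowest, at percentile 14.1 or under.

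Adhesion genes were above the bound in 18 of 23 cases (78.3%), 9 of them in the top 10%. After Cd24a came Cd47, the signal against engulfment, at 11.82 and 11.76 log2 (98.8), the tetraspanin Cd53 at 11.38 and 11.46 (97.8), Ptprc (CD45) at 11.40 and 11.38 (97.7), the selectin ligand Selplg at 11.15 and 11.10 (96.5) and the integrin alpha 4 chain Itga4 at 11.07 and 10.96 (96.0). Itgb7, a beta partner of Itga4, was not above the bound. The adhesion receptor Vcam1, the stromal ligand of Itga4, was lowest at 5.45 and 5.50 log2 (10.9), and Ncam1 (CD56), found on many human myelomas, was at 6.90 and 6.62 (35.9).

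Checkpoint and costimulatory genes passed in 6 of 16 cases (37.5%). Lgals9 was at 11.45 and 11.41 log2 (97.8), the inhibitory receptor Btla at 10.30 and 10.28 (90.8), Cd80 at 9.36 and 9.37 (80.0) and Pdcd1 (PD-1) at 9.17 and 9.12 (77.1). Cd274, the ligand of PD-1, was not above the bound at 7.04 and 7.02 (43.0) and was named after its value was seen. Ctla4 (5.83 and 5.72 log2), Pvr (5.50 and 5.61) and Havcr2 (4.93 and 5.01) were among the dimmest genes of the lists.

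The study's title concerns DNA released by neutrophils, so sensors of nucleic acids were listed with Toll-like receptors: 11 of 23 passed (47.8%), the share of all coding genes. Those above the bound included genes of endosomal DNA sensing. The trafficking chaperone Unc93b1 was at 10.64 and 10.66 log2 (93.9), the DNA receptor Tlr9 at 9.31 and 9.41 (80.0), and the adaptor Myd88 at 9.87 and 9.87 (86.2). In the cytosolic path Aim2, a DNA sensor of inflammasomes, was at 9.68 and 9.72 (84.2) and the kinase Tbk1 at 9.91 and 9.91 (86.7). Sting1 was at 8.99 and 9.01 log2 (75.3), while Cgas, the enzyme that makes its ligand, was not above the bound at 6.57 and 6.64 (31.7); both names were chosen after the values were seen. The RNA sensors Tlr3 (6.26 and 6.10), Tlr13 (5.78 and 5.60), Tlr7 (5.19 and 5.58) and Tlr8 (5.43 and 5.34) were the 4 lowest.

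Among 18 genes of secreted factors, 4 were above the bound (22.2%): Mif at 12.09 and 11.96 log2 (99.2), Tgfb1 at 10.82 and 10.66 (94.4), Vegfa at 9.75 and 9.76 (84.9) and, just past it, Ccl3 at 7.83 and 7.80 (59.2). At the looser bound 8 passed. Il6 was the dimmest gene of the list at 4.57 and 4.55 log2 (4.1), below even the median of the sensory receptors, so its receptor chains were above the bound and the ligand was not. Il10 was at 5.06 and 5.16 (7.6), and the osteoclast factor Tnfsf11 (RANKL) at 5.76 and 5.80 (14.8). Genes of drug targets and of drug response, a list that shares members with others, passed in 15 of 18 cases (83.3%, median percentile 89.6). The share of all coding genes was 48.2%. Psmb5, the proteasome subunit that bortezomib blocks, stood at 12.39 and 12.42 log2 (99.6), Ddb1, part of the cereblon ligase, at 11.58 and 11.57 (98.3), and Xpo1, the exporter that selinexor blocks, at 10.99 and 10.94 (95.7). The drug efflux pump Abcb1a was not above the bound at 7.73 and 7.44 (55.2).

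**Figure D4:**
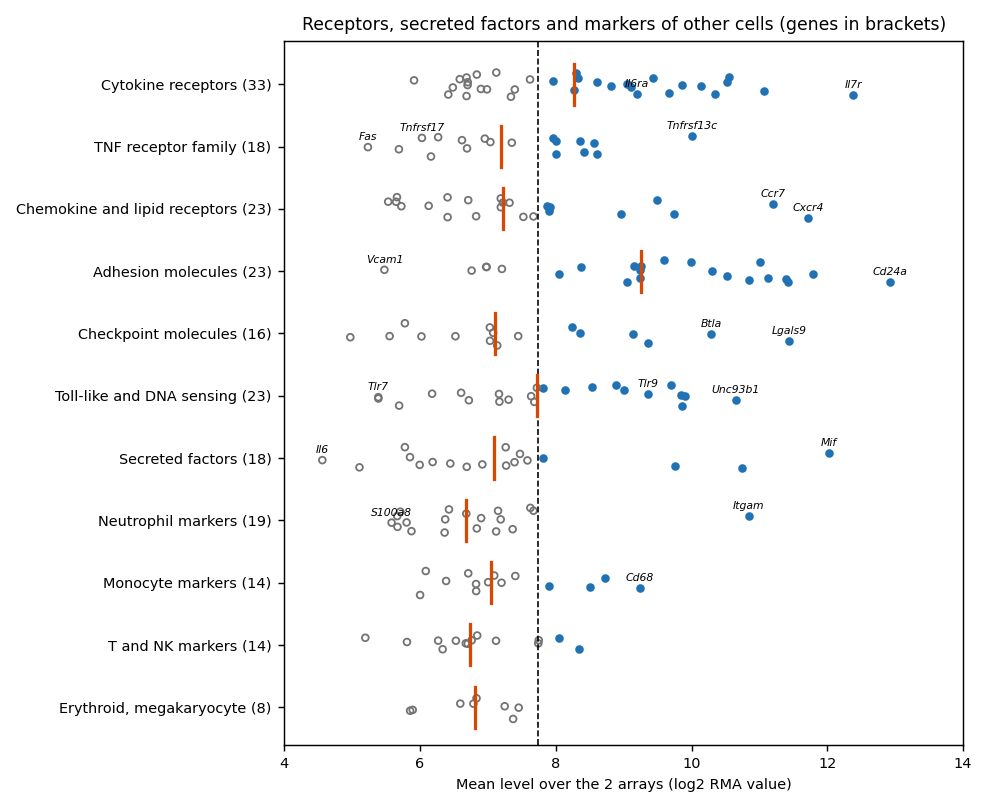
Mean log2 level over the 2 arrays of DP42 cells cultured alone for each gene of 7 lists of receptors, sensors and secreted factors and 4 lists of markers of other cells, with filled points above the background bound (dashed line) in both arrays, open points not above it, and the median of each list as a vertical bar. The vertical scatter within a row has no meaning. Itgam stands alone among 19 neutrophil markers, and no erythroid or megakaryocyte marker is filled.

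Metabolic genes were above the bound in 121 of 150 cases (80.7%, median percentile 87.1), against 48.2% of all coding genes, and 64 were in the top 10%. Nucleotide synthesis was complete among the genes analysed, with 20 of 20 above the bound, a median percentile of 94.5 and 15 in the top 10%. Atic, which completes the purine ring, was at 11.98 and 11.95 log2 (99.1), the ribonucleotide reductase subunit Rrm1 at 11.68 and 11.64 (98.5), Gart at 11.42 and 11.46 (97.9; a dimmer probe set at 6.54 and 6.56), and Cad, which starts pyrimidine synthesis, at 11.06 and 11.03 (96.1). Dhodh, the mitochondrial step of that path, was lowest at 7.92 and 8.01 (61.3). The TCA cycle with pyruvate dehydrogenase passed in 21 of 21 cases (median percentile 91.7), from Cs, citrate synthase, at 12.34 and 12.26 log2 (99.5) to Suclg1 at 8.35 and 8.46 (67.2). Mdh2 (12.20 and 12.19 log2, 99.4), Idh3g (12.15 and 12.24, 99.4) and Idh3b (11.75 and 11.73, 98.7) were close behind in rank.

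Glycolysis was more uneven, with 15 of 24 above the bound (median percentile 69.7), and isoforms of the same step lay on opposite sides in several cases. Gapdh stood at 13.01 and 13.00 log2 (99.8), Pgk1 at 11.95 and 12.03 (99.1), Pkm at 11.67 and 11.58 (98.4) and Tpi1 at 11.26 and 11.28 (97.3). The lactate carrier Slc16a1 was at 11.84 and 11.76 (98.8), while the lactate dehydrogenase subunit Ldhb was not above the bound at 6.39 and 6.48 (27.4), nor was the hexokinase Hk3 at 6.43 and 6.53 (28.6). Ldha was at 8.98 and 9.01 log2 (75.2) and the glucose carrier Slc2a1 at 10.20 and 10.18 (89.8; its other probe set at 6.47 and 6.49), both named after their values were seen. Eno3, the enolase usually linked to muscle, was at 11.67 and 11.77 (98.6), and the insulin-regulated carrier Slc2a4 was not above the bound at 6.80 and 6.87 (37.8).

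Glutamine and amino acid supply also divided, with 10 of 16 above the bound and 8 of these in the top 10%. The aminotransferase Got2 was at 12.46 and 12.47 log2 (99.6) in 1 probe set and at 6.91 and 6.94, not above the bound, in the other. The glutamine carrier Slc1a5 was at 12.24 and 12.18 (99.4), the carrier Slc38a2 at 12.27 and 12.17 (99.4), and Slc7a5, for large neutral amino acids, at 11.53 and 11.42 (98.0). The cystine carrier Slc7a11 was not above the bound at 5.78 and 5.56 (13.4), nor was Arg1 at 6.73 and 6.77 (35.6). Asns, asparagine synthetase, was also below it, at 7.18 and 7.26 log2 (47.8), and was named after its value was seen. Serine and one-carbon genes passed in 12 of 13 cases, with the mitochondrial Shmt2 at 12.33 and 12.36 (99.5), Phgdh, the entry to serine synthesis, at 10.32 and 10.28 (90.9), and Cbs alone not above the bound at 7.49 and 7.54 (54.2). The pentose phosphate pathway passed in 5 of 5 (3 at the stricter bound), and polyamine synthesis in 5 of 5, where Srm, spermidine synthase, was at 11.83 and 11.89 log2 (98.9) and Odc1, a classic target of MYC, at 10.47 and 10.52 (92.6).

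Lipid synthesis was above the bound at nearly every step analysed. Fatty acid synthesis passed in 9 of 11 cases, with Fasn at 11.36 and 11.35 log2 (97.6), Acly at 11.15 and 11.13 (96.6) and Scd1 at 10.93 and 10.96 (95.6). The exceptions were the desaturase Fads2 (6.41 and 6.43) and Acacb (6.35 and 6.48), the carboxylase form that controls oxidation, while the synthetic form Acaca was at 9.91 and 9.84 (86.3). Cholesterol synthesis passed in 12 of 12, from its regulator Srebf2 at 11.32 and 11.26 log2 (97.4) to Pmvk at 7.87 and 7.89 (60.2). Fatty acid oxidation passed in 9 of 13, with Hadh at 11.89 and 11.93 (99) and the gate enzyme Cpt1a at 9.50 and 9.44 (81.5). The regulators Ppara (6.75 and 6.76 log2) and Ppargc1a (6.40 and 6.12) were not above the bound.

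Gluconeogenesis and the urea cycle, programmes of liver, passed in 3 of 10 cases (30.0%, median percentile 46.6), and in 1 at the stricter bound. These were the mitochondrial Pck2 at 9.32 and 9.40 log2 (80.0), Ass1 at 8.61 and 8.46 (68.8) and Asl at 8.01 and 8.05 (62.3). The liver forms Pck1 (6.87 and 7.0 log2), G6pc (6.41 and 6.45), Fbp1 (6.41 and 6.29) and Otc (6.26 and 5.96) were not above the bound.

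**Figure D5:**
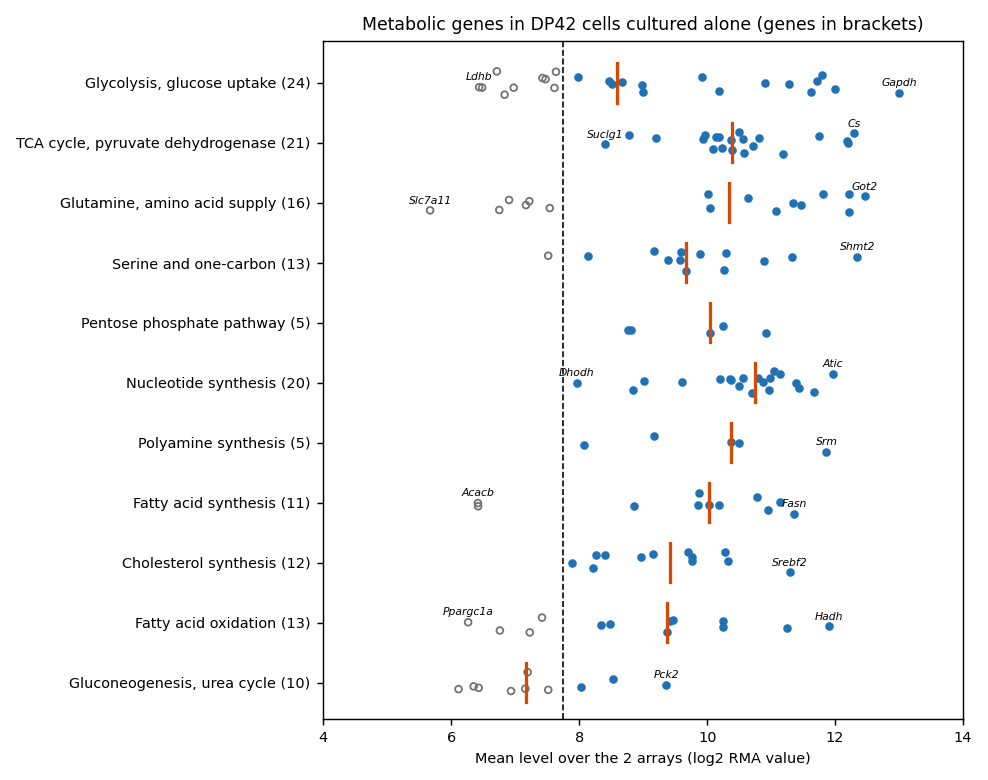
Mean log2 level over the 2 arrays of DP42 cells cultured alone for each gene of 11 metabolic lists, with filled points above the background bound (dashed line) in both arrays, open points not above it, and the median of each list as a vertical bar. The vertical scatter within a row has no meaning. All genes of the TCA cycle, the pentose phosphate pathway and of nucleotide, polyamine and cholesterol synthesis are filled, and 3 of 10 in gluconeogenesis and the urea cycle.

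MicroRNAs are short RNAs that lower the output of messages they pair with. They were read here by probe sets that carry the gene's name, and whether a probe set reads the precursor or a mature arm is not stated in these sources. Of 29 listed, 5 were above the bound (17.2%, median percentile 19.8), near the share of all microRNA genes analysed, 92 of 478 (19.2%, median percentile 17.2). At the stricter bound 1 passed, at that from other genes 3, and at the looser bound 9. All 5 matched the RefSeq table (GRCm38.p6), which gives a 5p and a 3p form for each. Both forms of Mir142 and the 5p forms of the others are shown 5′ to 3′ with the seed, bases 2 to 8, in capitals, since the seed sets which messages a microRNA can pair with. Mir142, a gene of blood cells on chromosome 11, with its 5p form at chr11:87756867-87756887 (plus strand), stood at 9.83 and 9.53 log2 (84.0).
mmu-miR-142a-5p: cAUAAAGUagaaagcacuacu
mmu-miR-142a-3p: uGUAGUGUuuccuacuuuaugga
Mir181b-1 was at 8.79 and 8.71 log2 (71.7) and Mir181b-2 at 8.38 and 8.21 (65.8). Both genes, on chromosomes 1 and 2, give the same 5p form.
mmu-miR-181b-5p: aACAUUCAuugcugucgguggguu
Mir15a, on chromosome 14, was at 8.62 and 8.49 (69.2), and Mir18, on the same chromosome, was near the bound at 7.79 and 7.98 (60.2).
mmu-miR-15a-5p: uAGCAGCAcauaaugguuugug
mmu-miR-18a-5p: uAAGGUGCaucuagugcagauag
None of these 5p seeds is shared between the genes other than that of the Mir181b pair. The lowest were Mir148a (3.64 and 3.75 log2), Mir1a-1 (3.44 and 3.84), Mir125b-1 (3.46 and 3.69) and Mir29b-1 (3.26 and 3.24), at the bottom of the arrays' range.

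Promoters of the genes above the bound differed in base makeup from the others. Promoter windows were found for 14177 of the 17595 coding genes. The median number of CG dinucleotides in the 300 bases was 22 for the 6977 genes above the bound and 8 for the 7200 not above it, and 86.2% against 44.8% held 10 or more. In the 10% of genes with the lowest level the median was 3, and in the 10% with the highest it was 25, as a description over genes, which are not independent. TATAAA, searched on both strands, was in 6.4% of windows above the bound and 14.8% of the others, against 10.7% of all 14177. CACGTG, which overlaps the CG count, was in 11.1% and 6.6%, against 8.8% of all 14177. Over all 27025 windows available, a wider set of genes, the shares were 14.2% for TATAAA and 7.2% for CACGTG.

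Lineage genes above the bound departed from that pattern of the bright genes. Their 71 windows had a median of 11 CG, and 54.9% held 10 or more, with Igll1 at 2. The 56 receptor windows were similar, with a median of 13 and 55.4%. Windows of metabolic genes (104, median 20.5, 89.4%) and of growth-control genes (67, median 25, 89.6%) resembled all genes above the bound. These are letters in a window and say nothing of which factor binds there.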

How the data were processed

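Expression was measured on 6 Affymetrix arrays, of which the 2 of cells cultured alone are described. The deposited table held log2 values per probe set, which per the submitters' processing notes the authors computed by RMA. This method subtracts background, normalises between arrays and summarises probes, so signals near background are compressed. The software version and array model are not given in the sources used here. Of 41345 probe sets, 23521 had 1 symbol in the platform annotation, 1814 had several and 16010 were unnamed here, and the last 2 kinds were not used. Where a gene had several probe sets (1082 genes), the brightest by mean over all 6 arrays stood for it. Percentile ranks and the background bound were computed in each array with Python 3.11.15, numpy 2.4.6 and pandas 2.3.3, and plots with matplotlib 3.10.9. No test between groups was made and no p-value is given. The number of arrays and the choice of bound limit the precision.

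Counts were made over 43 lists of 715 symbols, of which 628 genes were analysed, the rest being not analysed here. The members, the lists, the gene families, the promoter features and the printed sequences were chosen with earlier results of these data known, so none is independent support. Named genes are the markers, up to 6 highest and 4 lowest members of each list, any member of a list of 12 or fewer, the 25 brightest genes and the 5 with the largest difference between the arrays. Any other gene is said to be named after its value was seen. Alternatives were other percentiles and other genes for the bound, other ways to combine probe sets, quantile normalisation, ranking without the receptors and leaving out each array.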

Additional observations from a re-analysis of the deposited data

How the results depend on the processing

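The bound was the choice that counts depended on. With the 99th percentile of the receptors as the bound (8.85 and 8.88 log2), 5766 genes passed instead of 9121, the markers of other cells fell from 14 to 3 and the microRNA genes from 5 to 1. With the 90th percentile (7.22 and 7.18 log2) these were 28 and 9, and with keratin-associated, beta-defensin and taste receptor genes setting the bound (131 genes, 8.31 and 8.23 log2) they were 7 and 3. The number above the bound moved by over 1.5 times in 14, 7 and 8 of the 43 lists under these 3 bounds. Averaging probe sets, choosing them on the alone arrays and quantile normalisation moved no list that far, and totals were 8973, 9121 and 9119. Leaving out either array gave 9266 to 9339 genes, 383 to 388 listed genes, 91 to 92 lineage, 77 growth-control, 72 to 73 receptor, 121 metabolic, 15 drug-target, 2 sex chromosome, 15 to 17 other-cell and 5 to 7 microRNA genes, and 1 list moved each time. Averaging probe sets moved a listed gene's percentile by up to 35.97 points (median 0.71). Of the listed genes, 53 lay within 0.25 log2 of the bound, and 20 of 38 with several probe sets had them on both sides. No paired analysis was possible because no result here compares groups.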

Other observations

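Families of general cell machinery, chosen with values of these data known, were mostly above the bound. The 8 genes of the replicative helicase were all above the bound, with a median percentile of 98.1. Proteasome subunits passed in 44 of 47 cases (93.6%), translation initiation factors in 48 of 51 (94.1%), splicing factors and hnRNPs in 54 of 59 (91.5%), mitochondrial ribosomal proteins in 64 of 68 (94.1%) and complex I in 37 of 42 (88.1%). Cytosolic ribosomal proteins passed in 52 of 63 (82.5%, median percentile 96.2). Solute carriers (149 of 361, 41.3%) lay near the 43.6% of all genes without the receptors, and zinc finger proteins passed in 202 of 370 (54.6%).

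Families of development and other tissues were seldom above the bound: 0 of 35 protocadherins, 3 of 37 Hox genes (8.1%), 10 of 98 cytochromes P450 (10.2%), 4 of 53 keratins (7.5%), 7 of 44 collagens (15.9%), 2 of 19 Wnt ligands (10.5%), 4 of 33 interleukins (12.1%), 15 of 90 potassium channels (16.7%) and 1 of 42 beta-defensins (2.4%). Among RNA classes, 244 of 1926 long non-coding RNAs (12.7%), 92 of 478 microRNA genes (19.2%) and 63 of 80 small nucleolar RNAs (78.8%) passed.

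Of 4 sex chromosome genes analysed, Eif2s3y was at 9.88 and 9.84 log2 (percentile 86.1) and Kdm5d at 9.55 and 9.49 (82.1), both Y-linked and above the bound. Uty, also Y-linked, was not above it at 6.53 and 6.52 (29.7), nor was Xist, the RNA of the inactive X chromosome, at 6.09 and 6.23 (21.2). The labels give no sex for the line.

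Several small RNA genes were among the brightest of all: Mir5099 at a mean of 13.74 log2, the telomerase RNA Terc at 13.08 and Mir449b at 13.01, named after their values were seen. What the Mir5099 and Mir449b probe sets read is not stated in these sources. The median percentile of all 478 microRNA genes was 17.2.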
